A study of Mus musculus with 10 samples.

Results

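The transcripts of 40 antioxidant and detoxification genes were followed across periosteal skeletal stem cells (P-SSCs), mesenchymal stem cells of the bone marrow (BM-MSCs) and BM-MSCs of transplanted femurs. The genes were taken from a fixed list of superoxide, peroxide, thioredoxin, glutathione and metallothionein genes by their symbol. The rule uses no measured value, but the list was drawn up with earlier results of these data known. All 40 were among the 15078 genes of the RNA sequencing table and all 40 passed the filter on low values. The study measured reactive oxygen species and the transcripts of some antioxidant enzymes in P-SSCs and BM-MSCs, as it asked whether these cell types differ in their resistance to stress. The table allows the same question to be put to the wider set of enzymes, and then to BM-MSCs of the graft.

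The 10 mouse libraries came from CD45-Ter119-CD31-CD51+CD200+ cells, a sort that excludes blood cells, red cells and endothelium and keeps skeletal stem cells. BM-MSCs (n = 3; libraries 1, 2+4 and 3) were from the marrow, and P-SSCs (n = 3; libraries 1, 2+5 and 4) from the periosteum, of wild-type mice at steady state, and these 6 libraries are shared with another series. In BM-MSC 2+4 and P-SSC 2+5 RNA of 2 mice was combined. Graft BM-MSCs (n = 4) were Tomato+ cells from the marrow of femurs 5 months after transplantation under the skin of a recipient mouse, with the genotype transgenic (POSTN-CRE) and tamoxifen induction. Postn is high in periosteal cells, but the paper states that other cell types, osteoblasts and fibroblasts among them, express it too. In these Postn Cre-ER;tdTomato femurs, Tomato marks cells that used Postn when tamoxifen was given, and their descendants. Graft and steady-state libraries therefore differ in transplantation, genotype, tamoxifen and origin of the data, and the parts of these in any difference cannot be told apart. The labels give no ages.

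Reactive oxygen species arise from respiration and from oxidases. Superoxide dismutases turn superoxide into hydrogen peroxide, which catalase, glutathione peroxidases and peroxiredoxins remove. The peroxidases draw their reducing power from glutathione and thioredoxin, which are recycled by reductases that use NADPH. NRF2, the product of Nfe2l2, is held down by KEAP1 and, when released, switches on many of these genes through antioxidant response elements (AREs) in DNA. Metallothioneins bind zinc and copper and are induced by metals through metal response elements (MREs). Glutathione transferases couple glutathione to reactive compounds.

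Library depth was 15415421 to 25223295 reads, and 3 reads, the smallest amount treated as detectable, were 0.119 to 0.195 ppm of a library. Values below are normalised read counts, that is reads over the size factor given to each library. The marrow stroma markers Lepr, Cxcl12, Kitl and Adipoq summed to 830214 or more in each BM-MSC library, 663311 to 812775 in graft BM-MSCs and 4505 to 8842 in P-SSCs, whereas the periosteal markers Postn, Fmod, Pi16 and Cilp summed to 193332 to 370019 in P-SSCs and 9031 or less elsewhere. Of the 7 general mesenchymal markers all were detected in each group, with sums of 435929 or more in steady-state libraries and 30376 to 90892 in graft BM-MSCs. Most of the steady-state sums was Col1a1 and Col3a1. Col1a1 was at 185603 or more in steady-state libraries and at 33746 or less in graft BM-MSCs, and Pdgfra was also lower in every graft library. Pdgfrb, Prrx1, Itgav and Cd200 overlapped between graft and steady-state libraries, and Col3a1 overlapped between graft and BM-MSCs. RNA of blood cells was not absent from the sorted marrow samples. Of 9 neutrophil markers all were detected in BM-MSCs, with a sum of 30568 to 94862, against 33.9 to 287 in P-SSCs (2 of 9 at 0 in every library) and 5753 to 115911 in graft BM-MSCs (1 of 9 at 0). For 8 red cell markers in the table the sums were 59227 to 212918 in BM-MSCs, 208 to 1407 in P-SSCs (3 of 8 at 0) and 1566 to 27755 in graft BM-MSCs (1 of 8 at 0), and for 9 macrophage markers 4635 to 16766, 455 to 2632 (2 of 9 at 0) and 1446 to 13496 (1 of 9 at 0). Of 4 endothelial markers in the table, Tek was at 3254 to 6869 in P-SSCs and Emcn and Tie1 were at 0 there; all 4 were at 0 in graft BM-MSCs. The 4 muscle markers in the table summed to 278 to 1360 in P-SSCs and 155 or less elsewhere. Libraries also fell apart by base composition. Transcripts with over 65% GC, relative to those with 50 to 60%, were high in the 4 graft libraries and P-SSC 4 (log2 1.32 to 2.44) and low in the 3 BM-MSC libraries, P-SSC 1 and P-SSC 2+5 (log2 -1.99 to -1.56). Graft libraries detected fewer genes (9308 to 11674) than the steady-state ones (12217 to 13341).

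Between P-SSCs and BM-MSCs, 9 of the 40 genes (22.5%) had an adjusted p under 0.05 in limma, against 9.15% of all 13644 genes tested. Higher in P-SSCs were Sod3, Txn1, Gstm1, Nfe2l2 and Mt1, and lower were Gpx3, Gpx8, Prdx4 and Glrx. The set did not shift as a whole, as 20 genes had a positive and 20 a negative difference, with a median log2 difference of 0.03 beside 0.00 over all genes. The 5 higher genes were 12.5% of the 40, against 4.57% of all genes, and the 4 lower ones 10%, against 4.58%. Values of the groups did not overlap for 18 of the 40 (45%), against 30.9% of all genes, with 8 higher (all genes 15.1%) and 10 lower (all genes 15.8%). With GC correction of the libraries the split of 5 higher and 4 lower became 1 and 2, with median centring 1 and 4, and with quantile normalization 5 and 7. In bulk samples such as these, fewer cells of a type and less RNA per cell cannot be told apart.

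Graft BM-MSCs differed from P-SSCs in 15 of the 40 genes (37.5%), against 18.1% of all genes. Sod2, Gpx8, Prdx4, Txnrd1, Glrx and Gsr were higher in graft BM-MSCs, and Sod1, Cat, Gpx1, Gpx7, Prdx6, Txn1, Gstm1, Nfe2l2 and Mt1 were lower. These 6 higher and 9 lower genes stand beside 6.08% and 12% of all genes. The groups did not overlap for 17 of the 40 (42.5%), against 26.6% of all genes, with 6 higher (all genes 8.06%) and 11 lower (all genes 18.5%). The median log2 difference was -0.13 beside -0.47 for all genes in limma, -0.0012 beside 0.030 in edgeR and -0.12 beside -0.043 in DESeq2, so that whether the list lay above or below all genes depended on the tool. The balance of directions rested on the scaling. Quantile normalization gave 11 higher and 6 lower and GC correction 9 higher and 2 lower, where median centring gave 5 and 5. GC correction also moved the median of all genes from -0.47 to 0.30. Differences of single genes under GC correction, given below for this comparison, include that shift.

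Against steady-state BM-MSCs, graft BM-MSCs differed in 2 genes (5%), where 7.67% of all genes did. Sod3 was higher and Nfe2l2 lower, where 2.61% and 5.06% of all genes were. The median log2 difference was -0.29 beside -0.53 for all genes in limma, above it, but below it in edgeR (-0.28 beside -0.052) and DESeq2 (-0.27 beside -0.043). Values of 15 of the 40 (37.5%) did not overlap, against 25.0% of all genes, with 6 higher (all genes 10.3%) and 9 lower (all genes 14.7%). All graft libraries lie on one side of the GC split and all BM-MSC libraries on the other, so the split and the group cannot be told apart in this comparison. The 3 comparisons share libraries and are not independent of each other.

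**Figure D1:**
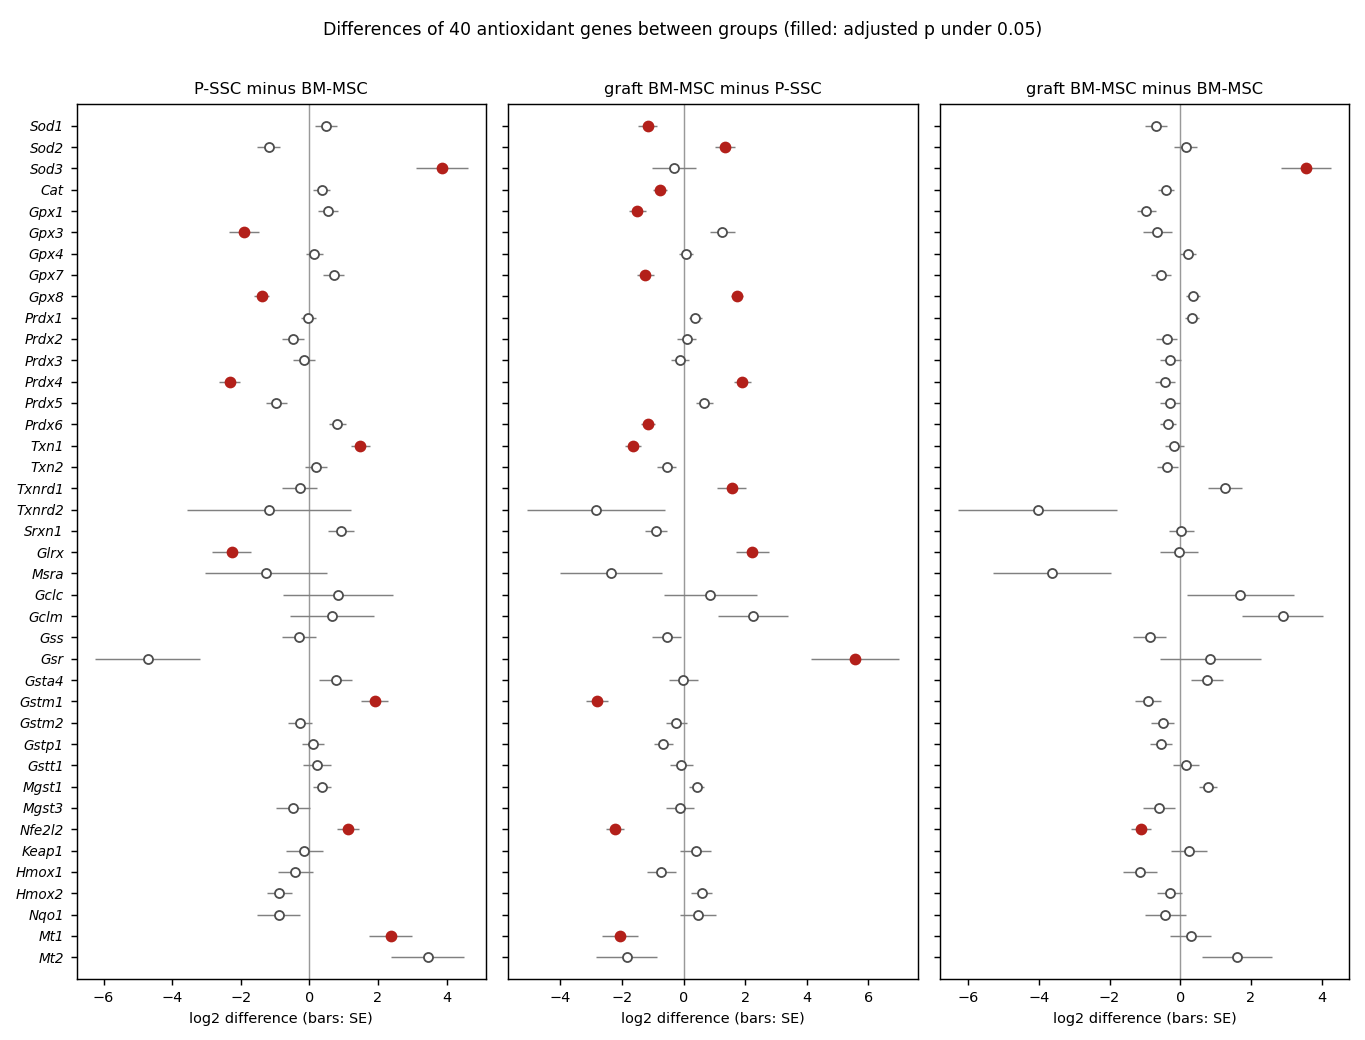
Log2 differences between groups for each of the 40 genes, ordered by role from superoxide dismutases at the top to metallothioneins at the bottom, with bars of 1 standard error; filled points have an adjusted p under 0.05 (limma). The filled points number 9 in the left panel, 15 in the middle and 2 in the right, and they lie on both sides of 0.

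Of the superoxide dismutases, the extracellular enzyme Sod3 (chr5:52363791-52371418, + strand, GRCm38) was the gene that separated BM-MSCs from both other groups. Sod3 was at 794, 502 and 422 in BM-MSC 1, 2+4 and 3, at 3409, 4848 and 30728 in P-SSC 1, 2+5 and 4, and at 10214, 3292, 4660 and 11108 in graft BM-MSC 1 to 4. All BM-MSC libraries lay below all others, while P-SSCs and graft BM-MSCs overlapped. The log2 difference of P-SSCs over BM-MSCs was 3.85 ± 0.76 (SE; adjusted p = 0.0079, limma) and that of graft BM-MSCs over BM-MSCs 3.55 ± 0.71 (adjusted p = 0.0152). Without P-SSC 4, by far the highest library, Sod3 stayed higher in P-SSCs at 2.88 (adjusted p = 0.0108). The graft difference missed the threshold without BM-MSC 2+4 or BM-MSC 3 (adjusted p = 0.0667 and 0.0712) and in edgeR (adjusted p = 0.053), and passed under GC correction. With the GC split as a covariate it was log2 0.63. That covariate was estimated from P-SSC 4 against P-SSC 1 and 2+5 alone, and cannot separate the GC split from the group here.

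Sod1 is the cytosolic dismutase, and qPCR of its transcript was part of the experiments. Its values were 1185, 1254 and 1275 in BM-MSCs, 1586, 2730 and 1193 in P-SSCs, and 715, 744, 865 and 753 in graft BM-MSCs. P-SSC 1 and 2+5 were above all BM-MSC libraries and P-SSC 4 was among them, while every graft library was below all steady-state ones. The P-SSC over BM-MSC difference of 0.48 ± 0.33 (95% interval -0.25 to 1.21, adjusted p = 0.582) did not pass the test, and neither did the value without P-SSC 4 of 0.75 (adjusted p = 0.172). Graft BM-MSCs fell below P-SSCs by 1.17 ± 0.31 on the log2 scale (adjusted p = 0.024), a call lost without P-SSC 1 or P-SSC 2+5 (adjusted p = 0.0621 and 0.0821) and with GC correction (log2 -0.17, adjusted p = 0.817). Sod2, the mitochondrial dismutase, ran the other way. Its values were 2142, 2346 and 2848 in BM-MSCs, 1138, 1592 and 662 in P-SSCs, and 2725, 3441, 2762 and 2035 in graft BM-MSCs. P-SSCs were below every other library. The graft over P-SSC difference was 1.34 ± 0.32 (adjusted p = 0.0151), and Sod2 kept this direction under GC correction (log2 1.86, adjusted p = 0.0312). That call held without any 1 library but was lost with median centring and with only the 2 groups compared. For Sod2, P-SSCs against BM-MSCs gave -1.19 ± 0.34 (adjusted p = 0.0575).

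**Figure D2:**
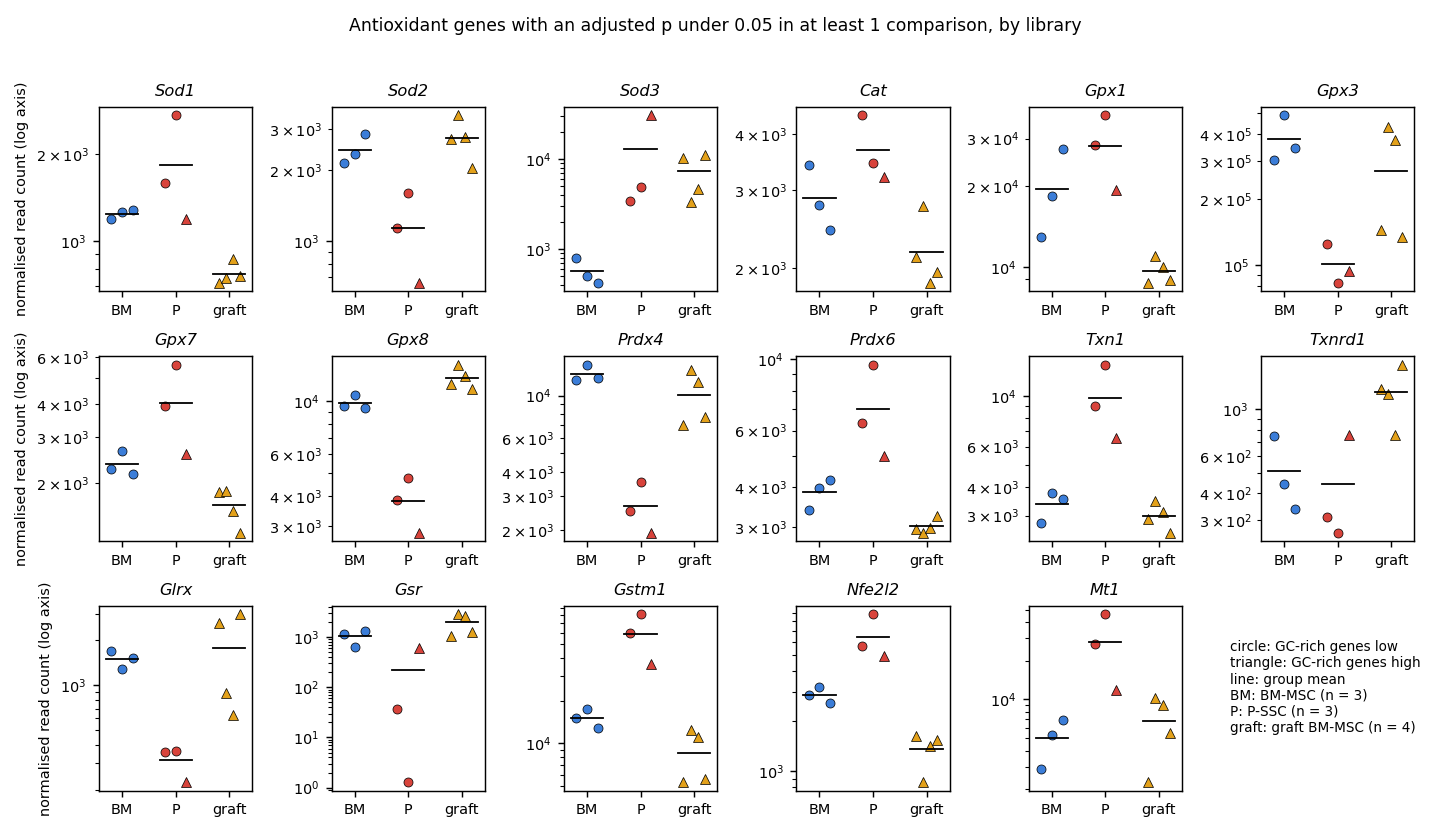
Normalised read counts (log axis, a scale of its own in each panel) of the 17 genes with an adjusted p under 0.05 in at least 1 comparison, with 1 point per library and a line at the group mean; circles are libraries with low and triangles with high values of GC-rich transcripts. Prdx4, Gpx8 and Glrx are low in all 3 P-SSC libraries, and Txn1, Gstm1 and Nfe2l2 are high in all 3.

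The 12 genes of peroxide removal (catalase, 5 glutathione peroxidases and 6 peroxiredoxins) included 2 enzymes of the endoplasmic reticulum that were low in P-SSCs, Prdx4 and Gpx8. Prdx4 (chrX:155323918-155340754, - strand), a peroxiredoxin that works in the secretory pathway, was at 12105, 14507 and 12358 in BM-MSCs, 2498, 3530 and 1933 in P-SSCs and 7036, 13638, 11782 and 7760 in graft BM-MSCs. Every P-SSC library was below every marrow library, and graft and steady-state marrow overlapped. Prdx4 was lower in P-SSCs than in BM-MSCs by 2.33 on the log2 scale (SE 0.30, adjusted p = 0.000619) and higher in graft BM-MSCs than in P-SSCs by 1.91 ± 0.28 (adjusted p = 0.000936). Both differences passed the test in edgeR, in DESeq2, under GC correction and without any 1 library. Gpx8 (chr13:113042753-113046410, - strand), a peroxidase anchored in the same compartment, was at 9525, 10565 and 9363 in BM-MSCs, 3845, 4763 and 2814 in P-SSCs and 11760, 14224, 12800 and 11294 in graft BM-MSCs. Its groups did not overlap in any comparison, with the graft highest and P-SSCs lowest. For Gpx8 the difference was -1.40 ± 0.21 between P-SSCs and BM-MSCs (adjusted p = 0.00158; under GC correction -1.23, adjusted p = 0.17). It was 1.74 ± 0.20 between the graft and P-SSCs (adjusted p = 0.00021), and 0.35 ± 0.20 between graft and steady-state marrow (adjusted p = 0.302).

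Gpx3 (chr11:54902453-54910377, + strand), the secreted glutathione peroxidase of plasma, was the most abundant of the 40 transcripts. Its values were 304019, 489040 and 344026 in BM-MSCs, 124984, 82819 and 94048 in P-SSCs and 144702, 428304, 376413 and 134907 in graft BM-MSCs. All P-SSC libraries were below all others, and the graft libraries spread from just above P-SSCs to within the range of BM-MSCs. P-SSCs had less Gpx3 than BM-MSCs, with a log2 difference of -1.91 ± 0.44 (adjusted p = 0.0187). That call was lost without BM-MSC 2+4, BM-MSC 3, P-SSC 2+5 or P-SSC 4 (adjusted p = 0.0893, 0.0611, 0.0811 and 0.0714) and under GC correction (adjusted p = 0.0792), while Gpx3 remained lower in P-SSCs in each. The graft was above P-SSCs by 1.26 ± 0.41 (adjusted p = 0.0568).

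Read shares, which do not depend on the size factors, showed what Gpx3 does to the total. The 40 genes together took 2.83% ± 0.37 (SD, n = 3) of the reads of BM-MSCs, 1.64% ± 0.15 (n = 3) of P-SSCs and 2.84% ± 1.06 (n = 4) of graft BM-MSCs. Gpx3 alone took 1.98% ± 0.37, 0.485% ± 0.12 and 1.82% ± 1.00. Without Gpx3 the order changed, and the shares were 0.852% ± 0.050 in BM-MSCs, 1.15% ± 0.21 in P-SSCs and 1.02% ± 0.09 in graft BM-MSCs. Per kilobase of transcript, Gpx3 stood first in every group (237784 normalised reads per kb in BM-MSCs, 63122 in P-SSCs and 170064 in graft BM-MSCs). It was followed by Gpx1 (18252) and Prdx4 (13121) in BM-MSCs, by Mt1 (51310) and Gstm1 (45705) in P-SSCs, and by Mt1 (12303) and Gpx8 (12015) in graft BM-MSCs.

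**Figure D3:**
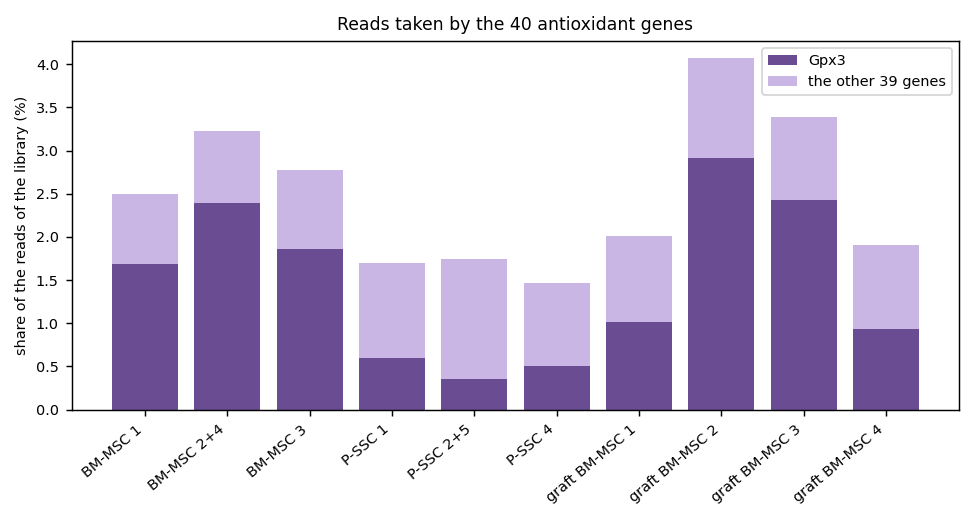
Share of the reads of each library taken by Gpx3 (dark) and by the other 39 genes (light), in percent, stacked from 0. Gpx3 takes more than the other 39 together in all BM-MSC libraries and less in all P-SSC libraries.

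Gpx1 is the abundant cytosolic peroxidase, and its transcript was also a subject of qPCR. It was at 12897, 18378 and 27423 in BM-MSCs, 28326, 36777 and 19364 in P-SSCs and 8731, 10964, 9991 and 8920 in graft BM-MSCs. P-SSC 4 lay inside the BM-MSC range, the other P-SSC libraries above it, and all graft libraries below both. The difference of P-SSCs over BM-MSCs was 0.54 ± 0.30 (95% interval -0.11 to 1.20, adjusted p = 0.408) and, without P-SSC 4, 0.79 (adjusted p = 0.171); Gpx1 thus did not pass the test in either. BM-MSC 3, the BM-MSC library with the highest Gpx1, also had the highest sum of red cell markers (212918), a cell type that carries Gpx1; its part in the value was not tested. Graft BM-MSCs were lower than P-SSCs, at -1.5 ± 0.28 for Gpx1 (adjusted p = 0.00369; under GC correction -0.50, adjusted p = 0.458).

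Prdx6, a peroxiredoxin that also repairs oxidised membrane lipids, was at 3387, 3987 and 4221 in BM-MSCs, 6358, 9634 and 5016 in P-SSCs and 2968, 2888, 2989 and 3257 in graft BM-MSCs. The 3 groups were separate, with P-SSCs highest and the graft lowest. Prdx6 in graft BM-MSCs was below P-SSCs by a log2 difference of -1.16 ± 0.23 (adjusted p = 0.00585; under GC correction -0.33, adjusted p = 0.626), and P-SSCs exceeded BM-MSCs by 0.81 ± 0.25 (adjusted p = 0.0739; without P-SSC 4 1.02, adjusted p = 0.017). Gpx7, which like Gpx8 resides in the endoplasmic reticulum, nevertheless had the opposite pattern, with 2266, 2652 and 2177 in BM-MSCs, 3920, 5633 and 2577 in P-SSCs and 1854, 1865, 1566 and 1299 in graft BM-MSCs. The graft was below both other groups, which overlapped through P-SSC 4. The graft difference from P-SSCs was -1.24 ± 0.28 for Gpx7 (adjusted p = 0.0123; under GC correction -0.32, adjusted p = 0.659), and P-SSCs over BM-MSCs gave 0.71 ± 0.30 (adjusted p = 0.233; without P-SSC 4 1.00, adjusted p = 0.0423).

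Cat, the catalase of peroxisomes, was at 3419, 2774 and 2436 in BM-MSCs, 4422, 3441 and 3212 in P-SSCs and 2113, 2759, 1852 and 1964 in graft BM-MSCs. Graft libraries were below all P-SSC libraries but overlapped BM-MSCs. The graft value was lower than that of P-SSCs by a log2 difference of -0.77 ± 0.23 for Cat (adjusted p = 0.044). It passed in 6 of 23 alternatives, since it was lost in edgeR (adjusted p = 0.0992), on leaving out any 1 library except P-SSC 4 or graft BM-MSC 2 (adjusted p from 0.0557 to 0.178), and changed sign under GC correction (0.11, adjusted p = 0.885). The other 5 genes of peroxide removal, Gpx4, Prdx1, Prdx2, Prdx3 and Prdx5, passed in no comparison. Gpx4, which guards membrane lipids against peroxidation, was level between the groups within its spread, with means of 9254 ± 1669 (SD), 10449 ± 3340 and 10714 ± 973 in BM-MSCs, P-SSCs and graft BM-MSCs.

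Thioredoxin and glutaredoxin, which reduce oxidised proteins in parallel, differed in opposite directions. Txn1 was at 2788, 3779 and 3560 in BM-MSCs, 9067, 13675 and 6568 in P-SSCs and 2906, 3462, 3103 and 2528 in graft BM-MSCs. Every P-SSC library was above every marrow library. Txn1 was higher in P-SSCs than in BM-MSCs by 1.48 ± 0.28 (adjusted p = 0.00595; under GC correction 1.5, adjusted p = 0.11) and lower in the graft than in P-SSCs, at -1.65 ± 0.26 (adjusted p = 0.00142; under GC correction -0.82, adjusted p = 0.269). Glrx, the cytosolic glutaredoxin that uses glutathione, was at 1694, 1292 and 1516 in BM-MSCs, 360, 363 and 224 in P-SSCs and 2612, 894, 630 and 2988 in graft BM-MSCs. P-SSCs were lowest without overlap, and graft libraries 2 and 3 were below and 1 and 4 above all BM-MSC libraries. The log2 difference in Glrx was -2.27 ± 0.58 for P-SSCs against BM-MSCs (adjusted p = 0.0326) and 2.23 ± 0.54 between the graft and P-SSCs (adjusted p = 0.0162). The first of these was lost on leaving out any 1 BM-MSC or P-SSC library, with adjusted p of 0.0703 to 0.117. The second held without any 1 library but was lost with only the 2 groups compared.

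Txnrd1, the cytosolic thioredoxin reductase, was at 747, 445 and 337 in BM-MSCs, 311, 261 and 758 in P-SSCs and 1254, 1187, 757 and 1627 in graft BM-MSCs. The 4 graft libraries and P-SSC 4 were above all others. The graft over P-SSC difference was 1.56 ± 0.47 for Txnrd1 (adjusted p = 0.0456). That call was lost in edgeR (adjusted p = 0.0913) and without any 1 library except P-SSC 4 or graft BM-MSC 3 (adjusted p from 0.0547 to 0.163). With the GC split as a covariate, and so against P-SSC 4 alone, the difference was log2 0.62. Srxn1, Msra, Txn2 and Txnrd2, which complete the thioredoxin genes, passed in no comparison. Txnrd2 and Msra were the only members with a value of 0, both in graft BM-MSC 2 and Txnrd2 also in graft BM-MSC 3. Other libraries had Txnrd2 at 79.0 to 628 and Msra at 45.8 to 715, well above the 2.53 to 3.02 that 3 reads are worth in graft BM-MSC 2 and 3.

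In the markers, the low level of Prdx4, Gpx8, Gpx3 and Glrx in P-SSCs went along with the low sums of neutrophil, red cell and macrophage markers in P-SSCs given above. The part of blood cell RNA in these 4 genes was not tested. Among graft libraries, 2 and 3 had the highest neutrophil sums, the highest Prdx4, Gpx3 and Gpx8 and the lowest Glrx. The neutrophil sum was highest in graft BM-MSC 3, and Prdx4, Gpx3 and Gpx8 were highest in graft BM-MSC 2. The red cell sum was higher in graft BM-MSC 4 than in 3. Among BM-MSCs the neutrophil sum was lowest in library 1 and highest in 3. There Prdx4 and Gpx3 were highest in 2+4, Gpx8 was lowest in 3 and Glrx was highest in 1.

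In glutathione synthesis and recycling, Gsr passed between graft BM-MSCs and P-SSCs, and Gsr, Gclc and Gclm varied widely among the P-SSC libraries. None of Gclc, Gclm, Gss and Gsr passed between P-SSCs and BM-MSCs in limma, edgeR or DESeq2, with 1 gene (Gsr) at an unadjusted p under 0.05 in limma. Gsr (chr8:33652523-33698163, + strand), which recycles oxidised glutathione, was at 1157, 648 and 1297 in BM-MSCs, 37.4, 1.27 and 614 in P-SSCs and 1055, 2828, 2680 and 1272 in graft BM-MSCs. The 1.27 in P-SSC 2+5 is a single read, and P-SSC 4 was just under the lowest BM-MSC library. The graft was higher than P-SSCs by 5.57 ± 1.43 for Gsr (adjusted p = 0.0222). Without P-SSC 4 the difference was 7.58 (adjusted p = 0.000937) and without P-SSC 2+5 3.54 (adjusted p = 0.0424). The call was lost without P-SSC 1 (adjusted p = 0.0766) or graft BM-MSC 3 (adjusted p = 0.0538) and in edgeR (log2 3.21, adjusted p = 0.152). With the GC split as a covariate, which compares the graft with P-SSC 4 alone, the difference was 1.54. P-SSCs against BM-MSCs gave -4.72 ± 1.53 (adjusted p = 0.0934), and -6.73 without P-SSC 4 (adjusted p = 0.00381).

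Gclc and Gclm, the catalytic and the regulatory subunit of the enzyme that sets the pace of glutathione synthesis, were named after their values were seen. Gclm was at 25.1, 49.6 and 54.2 in BM-MSCs, 51.9 and 10.2 in P-SSC 1 and 2+5, 479 in P-SSC 4, and 271, 288, 328 and 363 in graft BM-MSCs. Gclc was at 46.0, 25.3 and 7.89 in BM-MSCs, 8.31 and 14.0 in P-SSC 1 and 2+5, 446 in P-SSC 4, and 201, 96.1, 36.2 and 36.2 in graft BM-MSCs. For both, P-SSC 4 stood with or above the graft libraries and not with the other P-SSC libraries. Of all 40 genes, Txnrd1 and Gclm were higher and Gstp1 and Hmox1 lower in the 5 libraries with high GC-rich transcripts than in the other 5, without overlap, that is 5% in each direction against 6.67% and 3.61% of all genes. The part of the libraries' base composition in the level of these genes was not tested.

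**Figure D4:**
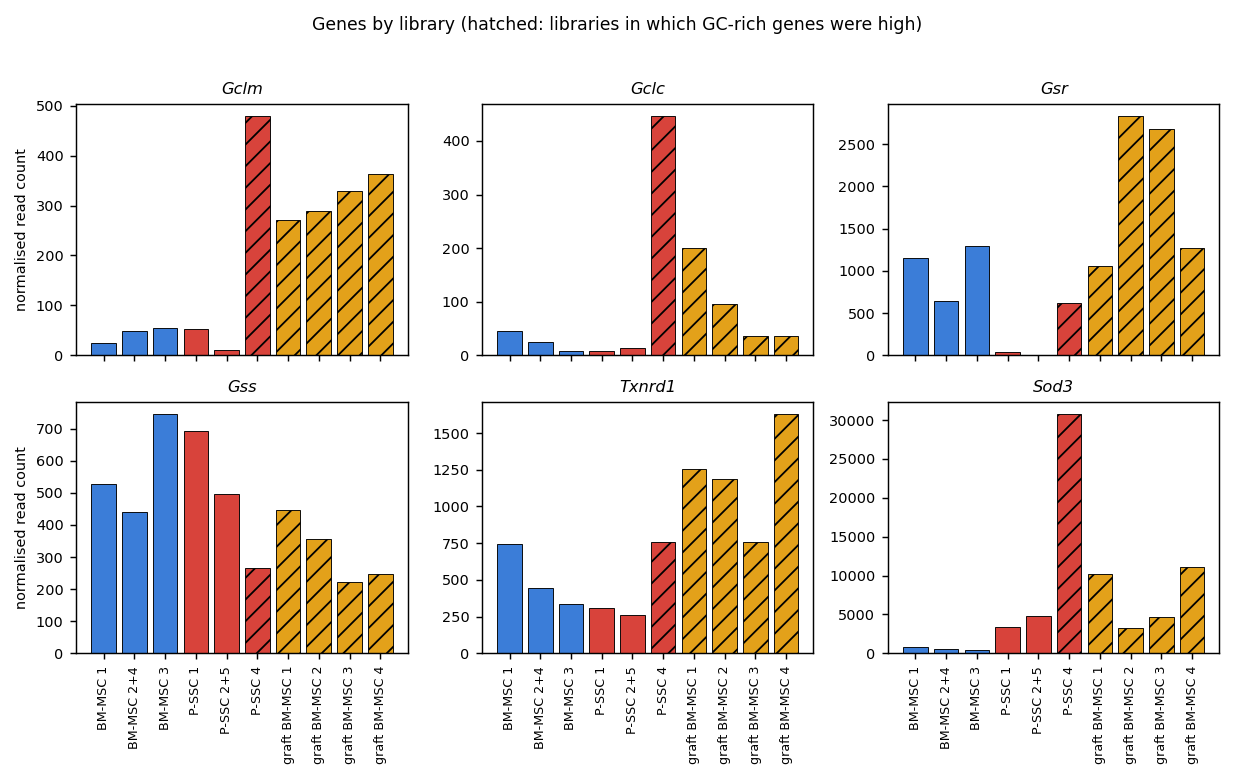
Normalised read counts per library (bars from 0) of the glutathione synthesis genes Gclm, Gclc, Gsr and Gss, of Txnrd1 and of Sod3; blue bars are BM-MSCs, red P-SSCs and yellow graft BM-MSCs, and hatched bars are the 5 libraries with high values of GC-rich transcripts. In Gclm, Gclc, Gsr, Txnrd1 and Sod3, P-SSC 4 is far above P-SSC 1 and P-SSC 2+5, and in Gss it is below them.

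P-SSC 4 differed from its group in most of the 40 genes, in 2 ways. In 32 of the 40 (80%) it was below the mean of P-SSC 1 and 2+5, with a median ratio of 0.608, where 54.1% of all genes with reads in those libraries were below, with a median of 0.918. The other 8 genes were above it. The ratio was 40 for Gclc, 31.7 for Gsr, 15.4 for Gclm, 7.44 for Sod3, 3.69 for Keap1, 3.38 for Txnrd2, 2.65 for Txnrd1 and 2.18 for Srxn1. Without P-SSC 4, 10 genes passed between P-SSCs and BM-MSCs (7 higher, 3 lower). Gpx7, Prdx6 and Gsr were then added, and Gpx3 and Glrx were lost.

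Of the 7 glutathione transferases, Gstm1 passed in comparisons with P-SSCs. Gstm1 (chr3:108012255-108017973, - strand), a cytosolic enzyme of the mu class, was at 15170, 17328 and 12796 in BM-MSCs, 59747, 80920 and 36075 in P-SSCs and 5316, 12330, 11090 and 5570 in graft BM-MSCs. The 3 groups were separate, with P-SSCs highest and the graft lowest. Gstm1 was higher in P-SSCs than in BM-MSCs by 1.90 ± 0.38 (adjusted p = 0.00911; under GC correction 1.85, adjusted p = 0.0678) and lower in the graft than in P-SSCs at -2.81 ± 0.36 (adjusted p = 0.000394; under GC correction -1.79, adjusted p = 0.0335). The difference of the graft from BM-MSCs was -0.91 ± 0.36 (adjusted p = 0.147). Its neighbour Gstm2 passed in no comparison, with log2 differences of -0.50 to -0.23, and neither did Gsta4, Gstp1, Gstt1 and the membrane-bound Mgst1 and Mgst3. Genes of the Gstm and Gstp families are close copies of each other, and reads may have been split between them in counting.

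Nfe2l2 (chr2:75675513-75704641, - strand), which encodes the regulator NRF2, was at 2868, 3210 and 2574 in BM-MSCs, 5699, 8783 and 4917 in P-SSCs and 1628, 858, 1429 and 1545 in graft BM-MSCs. The 3 groups were separate, in the order P-SSCs, BM-MSCs, graft. The difference of the graft from P-SSCs was -2.24 ± 0.29 for Nfe2l2 (adjusted p = 0.000436) and held without any 1 library, in edgeR and DESeq2 and under GC correction (-1.43, adjusted p = 0.0226). P-SSCs exceeded BM-MSCs by 1.13 ± 0.31 (adjusted p = 0.0488) and the graft was below BM-MSCs by a difference of -1.12 ± 0.29 (adjusted p = 0.0441), both close to the threshold. The first was lost in edgeR (adjusted p = 0.104), under GC correction (adjusted p = 0.125) and without any 1 library except P-SSC 4 or graft BM-MSC 2 (adjusted p from 0.0559 to 0.168). The second was lost in edgeR (adjusted p = 0.0741), under GC correction (-0.27, adjusted p = 0.712) and without any 1 library except P-SSC 2+5 or P-SSC 4 (adjusted p from 0.0512 to 0.162).

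Keap1, the inhibitor of NRF2, was at 755, 823 and 837 in BM-MSCs, 427, 511 and 1728 in P-SSCs and 866, 994, 605 and 1572 in graft BM-MSCs. P-SSC 4 was the highest of all libraries and P-SSC 1 the lowest, so that the groups overlapped throughout. The P-SSC against BM-MSC difference was -0.15 (95% interval -1.35 to 1.04, adjusted p = 0.997) and that of the graft against P-SSCs 0.40 (-0.72 to 1.51, adjusted p = 0.613). Nqo1 and Hmox1, known targets of NRF2, did not pass in any comparison. Nqo1, a quinone reductase, was at 150 to 354 in P-SSCs and 369 to 450 in BM-MSCs, with a difference of -0.90 ± 0.62 (adjusted p = 0.597). Hmox1, which breaks down heme, had -0.41 ± 0.51 (adjusted p = 0.877). The targets Gclc, Gclm, Txnrd1 and Srxn1 did not pass between P-SSCs and BM-MSCs either. Their differences were 0.84 ± 1.61, 0.65 ± 1.22, -0.29 ± 0.51 and 0.91 ± 0.38. Srxn1 was higher in every P-SSC library (1093, 897 and 2166) than in every BM-MSC library (608, 836 and 633). Among the 40, Txn1, Gstm1 and Mt1 passed in the direction of Nfe2l2 in both comparisons with P-SSCs. Gpx8, Prdx4 and Glrx passed in the opposite direction in both. Of 28 genes of a wider NRF2 network outside the 40, 3 (10.7%) passed between P-SSCs and BM-MSCs, all higher, beside 9.15% of all genes. Between graft BM-MSCs and P-SSCs 11 (39.3%) passed, 1 higher and 10 lower, beside 18.1%. The part of NRF2 in these differences was not tested.

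RefSeq promoters (GRCm38.p6, 250 bases before to 50 after the start of transcription) were found for 33 of the 40 genes. The core of the ARE was searched as TGACNNNGC on both strands. It was in 8 of the 33, Nfe2l2, Srxn1, Gclm, Prdx1, Mgst1, Mt2, Txnrd1 and Sod1, or 24.2%, where 14.0% of 27025 genes and 12.4% of all 32851 promoters held it. The matches of the regulator gene itself, of the 2 reductase and synthesis genes that split the libraries and of Sod1 are shown to set their letters side by side, with the core in capitals, each read on the - strand.
Nfe2l2, chr2:75704885-75704913: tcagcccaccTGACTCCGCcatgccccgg
Txnrd1, chr10:82859104-82859132: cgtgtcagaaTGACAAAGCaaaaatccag
Gclm, chr3:122245413-122245441: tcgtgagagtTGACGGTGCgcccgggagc
Sod1, chr16:90220696-90220724: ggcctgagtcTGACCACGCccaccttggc
These 4 genes share the core and not the direction of their differences. In graft BM-MSCs against P-SSCs, Nfe2l2 and Sod1 were lower, Txnrd1 was higher and Gclm did not pass (2.24 ± 1.14, adjusted p = 0.202). The other genes with a match, Srxn1, Prdx1, Mgst1 and Mt2, passed in no comparison. A match is a description of letters and does not show a bound site. In Gclm the core overlapped a match to the core of the MRE, which is described next.

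The metallothioneins Mt1 (chr8:94179082-94180327, + strand) and Mt2 (chr8:94172664-94173568, + strand) are neighbours on the same strand and both were higher in every P-SSC library than in every BM-MSC library. Mt1 was at 2905, 5283 and 6928 in BM-MSCs, 26914, 45802 and 11791 in P-SSCs and 2268, 10181, 9036 and 5533 in graft BM-MSCs. P-SSCs were above all marrow libraries, and graft and steady-state marrow overlapped. For Mt1 the difference was 2.36 ± 0.62 for P-SSCs against BM-MSCs (adjusted p = 0.0386) and -2.07 ± 0.58 for the graft against P-SSCs (adjusted p = 0.0328). The first was lost in edgeR (adjusted p = 0.0586), under GC correction (2.25, adjusted p = 0.105) and without any 1 library except P-SSC 4, graft BM-MSC 1 or graft BM-MSC 2 (adjusted p from 0.051 to 0.157). The second was lost under GC correction (-1.10, adjusted p = 0.314) and without BM-MSC 2+4, P-SSC 1, P-SSC 2+5, graft BM-MSC 1 or graft BM-MSC 4 (adjusted p from 0.0532 to 0.147). Mt2, named as the neighbour of Mt1, was far lower, at 8.35, 14.8 and 41.4 in BM-MSCs, 253, 269 and 117 in P-SSCs and 25.4, 70.0, 102 and 50.1 in graft BM-MSCs. Its P-SSC libraries were above all others, and its difference from BM-MSCs was 3.45 ± 1.06 (adjusted p = 0.0753).

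Because the pair shared its direction, the promoters of both are printed, with matches to the core of the MRE in capitals (TGCACNC or TGCGCNC, both strands, so that a match on the opposite strand appears as its reverse complement). RefSeq gives them on the + strand of GRCm38.p6 as chr8:94178839-94179138 for Mt1 and chr8:94172368-94172667 for Mt2.
Mt1: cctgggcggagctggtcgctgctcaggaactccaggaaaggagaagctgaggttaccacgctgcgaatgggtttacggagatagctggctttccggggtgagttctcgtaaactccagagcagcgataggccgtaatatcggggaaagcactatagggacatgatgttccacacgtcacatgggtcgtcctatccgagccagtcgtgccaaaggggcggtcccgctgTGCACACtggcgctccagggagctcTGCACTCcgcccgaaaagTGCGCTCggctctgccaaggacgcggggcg
Mt2: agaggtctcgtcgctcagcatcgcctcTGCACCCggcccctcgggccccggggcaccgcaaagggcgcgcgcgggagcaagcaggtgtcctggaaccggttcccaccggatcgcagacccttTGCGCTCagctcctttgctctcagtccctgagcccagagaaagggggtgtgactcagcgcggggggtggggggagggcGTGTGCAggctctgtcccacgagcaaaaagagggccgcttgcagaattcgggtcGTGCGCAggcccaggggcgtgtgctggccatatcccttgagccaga
Mt1 held 3 matches and Mt2 4. Of all 32851 promoters 25.7% held at least 1, as did 28.2% of genes and 10 of the 33 members with a promoter, so that the core is common.

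Genes of the same pathways outside the 40 were taken from lists of NADPH supply, glutathione handling, thiol repair, selenoproteins, the NRF2 network, metal response and sources of reactive oxygen, of which 116 were tested. Between P-SSCs and BM-MSCs 12 of them (10.3%) passed, 7 higher and 5 lower, close to the 9.15% of all genes. Between graft BM-MSCs and P-SSCs 30 (25.9%) passed, 8 higher and 22 lower, beside 18.1% of all genes, and between graft and steady-state BM-MSCs 12 (10.3%), 2 higher and 10 lower, beside 7.67%.

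Among sources of reactive oxygen, P-SSC and marrow libraries held transcripts of different NADPH oxidases. Duox1, an oxidase that releases hydrogen peroxide, was at 2926, 3447 and 3180 in P-SSCs, at no more than 3 reads in each BM-MSC library and at 0 in all graft libraries. Its mean in P-SSCs was at least 1006-fold higher than in BM-MSCs and at least 1054-fold higher than in graft BM-MSCs, both against 3 reads per library. Nox4, an oxidase that is active without a signal, was at 719, 443 and 737 in P-SSCs, at no more than 2 reads in BM-MSCs and at 0 in graft BM-MSCs, and was at least 200-fold and 209-fold higher in P-SSCs. The adjusted p for P-SSCs against BM-MSCs was 0.000148 for Duox1 and 0.000384 for Nox4. Cybb, the catalytic subunit of the oxidase of phagocytes, was the reverse. It was at 842, 771 and 2165 in BM-MSCs, at 0 in all P-SSCs and at 295, 889, 1122 and 336 in graft BM-MSCs, and was at least 329-fold higher in BM-MSCs than in P-SSCs. The sums of neutrophil and macrophage markers were high and low in the same groups, and their part in the Cybb values was not tested.

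In glutathione handling, Ggt5, an enzyme that cleaves glutathione conjugates outside the cell, was at 10594, 10989 and 10998 in BM-MSCs, 663, 415 and 289 in P-SSCs and 6323, 8212, 6387 and 4408 in graft BM-MSCs. All marrow libraries were above all P-SSC libraries. Ggt5 was lower in P-SSCs than in BM-MSCs at -4.66 ± 0.32 (adjusted p = 1.39e-05) and higher in the graft than in P-SSCs by 3.84 ± 0.30 (adjusted p = 2.57e-05). Its relative Ggt7 was also lower in P-SSCs (-3.08 ± 0.77, adjusted p = 0.0298). Gsta3, an alpha class transferase, was at 66.5, 25.5 and 124 in P-SSCs and at 0 in every marrow library, at least 22-fold higher than in BM-MSCs. In the remaining lists, Ugdh, which makes the sugar acid used in glucuronidation, was at 19428 to 21106 in P-SSCs and 1111 to 2315 in BM-MSCs (3.82 ± 0.38, adjusted p = 0.000148). Cyb5r3, a cytochrome b5 reductase, and Nqo2, a quinone reductase, were higher in P-SSCs by 2.06 ± 0.32 (adjusted p = 0.00179) and 1.59 ± 0.41 (adjusted p = 0.034). Txnip, which binds and inhibits thioredoxin, rose with Txn1 in P-SSCs (1.48 ± 0.37, adjusted p = 0.0291). Lower in P-SSCs were Selenop, the secreted selenium carrier (-1.83 ± 0.34, adjusted p = 0.00613), and Idh2, a mitochondrial source of NADPH (-1.5 ± 0.36, adjusted p = 0.0247).

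**Figure D5:**
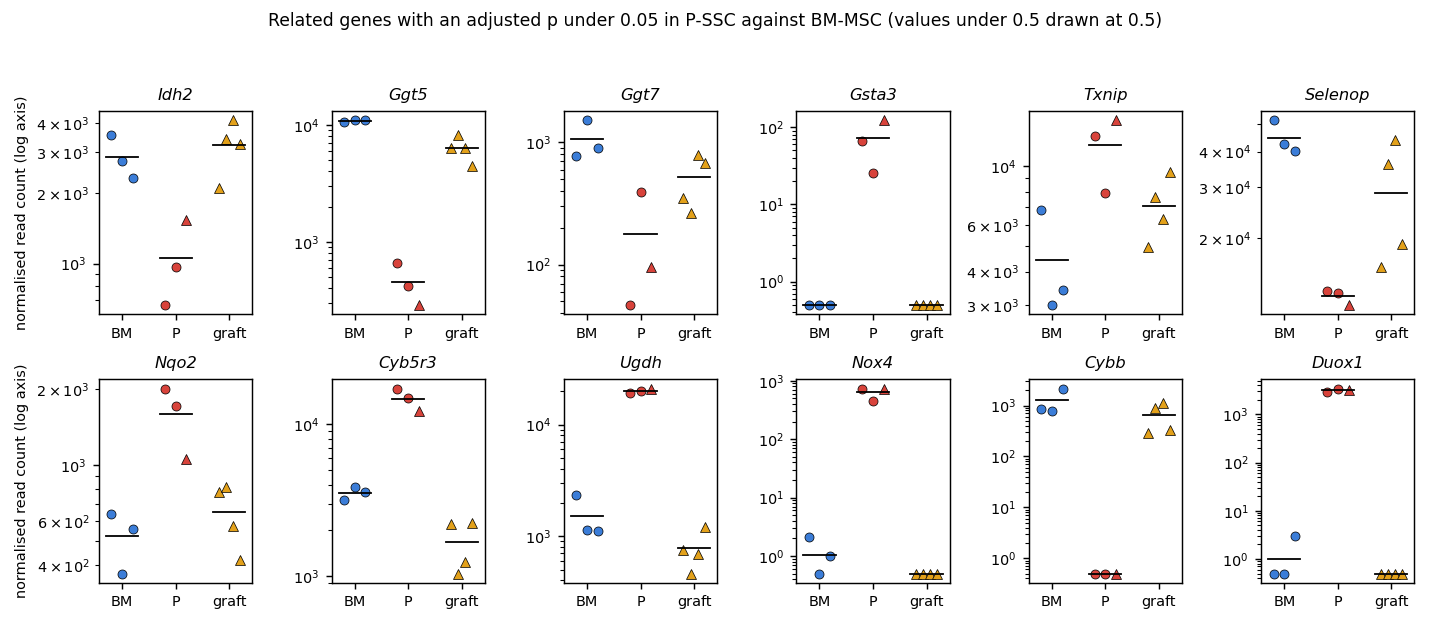
Normalised read counts (log axis, a scale of its own in each panel) of the 12 related genes with an adjusted p under 0.05 between P-SSCs and BM-MSCs, with 1 point per library and a line at the group mean; values under 0.5 are drawn at 0.5, and circles and triangles mark libraries with low and high values of GC-rich transcripts. Nox4, Duox1 and Gsta3 are high in the 3 P-SSC libraries alone, and Cybb is at 0 in them.

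Among the related genes that passed in both graft comparisons were Selenon, Xdh and Aldh1a1. Selenon, a selenoprotein of the endoplasmic reticulum, was at 628, 776 and 453 in BM-MSCs, 695, 525 and 867 in P-SSCs and 4387, 5464, 5013 and 3487 in graft BM-MSCs. Every graft library was above every steady-state library, by 2.90 ± 0.30 for Selenon over BM-MSCs (adjusted p = 0.00149) and 2.73 ± 0.30 over P-SSCs (adjusted p = 0.000168). Cul3, the scaffold through which KEAP1 marks NRF2 for degradation, was higher in the graft than in BM-MSCs (3.55 ± 0.94, adjusted p = 0.0469), with 126 to 1047 in graft libraries and 14.8 to 75.2 in BM-MSCs, while its difference from P-SSCs did not pass (2.62 ± 0.94, adjusted p = 0.081). Xdh, the xanthine oxidoreductase, fell from 10549 to 18941 in P-SSCs to 381 to 2051 in the graft (-3.57 ± 0.51, adjusted p = 0.00078). Aldh1a1, an aldehyde dehydrogenase, was at 1997 to 2964 in P-SSCs, 13.6 to 510 in BM-MSCs and 0 in all graft libraries, at least 790-fold lower in the graft than in P-SSCs. Graft libraries also detected fewer genes of all kinds, and the part of this in the values at 0 was not tested.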

How the data were processed

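RNA sequencing of 10 mouse libraries was used. The authors mapped reads with STAR and analysed them with DESeq2; the submitters' processing notes list FastQC 0.11.5, cutadapt 1.15, STAR 2.5, featureCounts (Subread 1.4.6), DESeq2 1.26.0 and GRCm39, while the methods give GRCm38. The annotation release, strand setting and filter are not given in the sources used here. In the deposited table each gene has a signal in every library, namely its reads over the library's size factor. Values were whole multiples of 1 read (100% within 0.05 read).

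Values were tested as log2(value + 1), for 13644 of 15078 genes with a mean of at least 10, with limma 3.58.1 (R 4.3.3; 1 mean per group, all 10 libraries, variance trend, two-sided, Benjamini-Hochberg over all genes, threshold 0.05). Differences understate the change of low genes. Per the methods, replicates held RNA of different mice. Alternatives included edgeR 4.0.16 and DESeq2 1.42.0 on the recovered reads, a loess GC correction (span 0.3), a GC split covariate, other scalings and filters, leaving out each library, and a replicate block. The fit was tested on simulated data. Folds against groups at or under 3 reads in every library were computed against 3 reads of the library where they weigh most, and cover counting error only. Coordinates, transcript lengths (principal transcript) and GC content came from GENCODE M21 (GRCm38) by Ensembl ID.

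The members and all lists were chosen with earlier results of these data known. Full values are given for members that passed in at least 1 comparison and for Sod1, Gpx1, Nfe2l2 and Keap1; related genes are named if they passed between P-SSCs and BM-MSCs, or were among the 2 largest differences of a list in a comparison.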

Additional observations from a re-analysis of the deposited data

Results flagged for a closer look

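Mgst1, a membrane-bound glutathione transferase, had 1 library apart from its group. Its normalised read count was 11686 in graft BM-MSC 2, where the other graft libraries lay between 8535 and 8912, and this gap was 0.862 of the range of the group, above the critical value of Dixon's test for 4 samples. All 40 genes were examined in the graft group and 1 was singled out, while chance alone marks about 1 gene in 20. Mgst1 passed the test in no comparison.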

How the results depend on the processing

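Counts of antioxidant genes with an adjusted p under 0.05 changed by over 1.5 times under some settings. Between P-SSCs and BM-MSCs (9), they were 5 with median centring and 3 with GC correction, and 5 to 10 on leaving out each library in turn, with 5 without BM-MSC 2+4 or BM-MSC 3. Between graft BM-MSCs and P-SSCs (15), they were 8 with only the 2 groups compared and 10 to 17 on leaving out libraries. Counts with the GC split as a covariate are left out, as that fit takes the GC effect from P-SSC 4 against P-SSC 1 and 2+5 alone. Between graft and steady-state BM-MSCs (2), quantile normalization and DESeq2 gave 4 each, only the 2 groups compared 5, median centring 1, and edgeR 0 (7 at an unadjusted p under 0.05). Leaving out libraries gave 0 to 5, with 0 without BM-MSC 2+4 or BM-MSC 3 (4 and 6 unadjusted), 5 without P-SSC 4 and 1 without P-SSC 1 or any 1 graft library. The median log2 difference of graft BM-MSCs from P-SSCs (-0.13) was 0.21 with quantile normalization, 0.69 with GC correction and -0.37 to -0.053 without single libraries, or 0.031 without P-SSC 2+5, with -0.37 without P-SSC 4; that from BM-MSCs (-0.29) was 0.55 with GC correction and 0.25 with the GC split covariate. Cat in graft BM-MSCs against P-SSCs changed sign under GC correction (0.11), which also moved the median of all genes from -0.47 to 0.30. The cause of these changes was not tested.

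Deviations of libraries with the same replicate label had correlations of -0.019 to 0.030. Where a pooled library shares a number with another library, correlations ran from -0.067 (BM-MSC 2+4 and P-SSC 4) to 0.081 (BM-MSC 2+4 and P-SSC 2+5). Such correlations cannot show whether the numbers of the titles pair the samples. The replicate block took 2+4, 2+5 and 2 as separate replicates. With a replicate block the counts were 0, 2 and 0 in the 3 comparisons (10, 16 and 5 at an unadjusted p under 0.05, limma), and with the block and GC correction 0, 4 and 0 (10, 16 and 13 unadjusted), where the median differences of the graft were 0.68 from P-SSCs and 0.60 from BM-MSCs and Nfe2l2 against BM-MSCs changed sign (0.035). The block leaves few degrees of freedom, and Gpx8 in graft BM-MSCs against P-SSCs passed in all 23 alternatives. A count of 0 allows up to 3 reads, which are at most 0.195 ppm of a library.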
